A study of Danio rerio with 6 samples.

Results

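Granulocyte colony-stimulating factor (G-CSF), its receptor and the C/EBP transcription factors were followed in red fluorescent cells sorted from zebrafish skeletal tissue. The set holds 8 genes, found by their symbols among 36351 gene rows. They are the ligand genes csf3a and csf3b, the receptor gene csf3r, and the factor genes cebpa, cebpb, cebpd, cebpg and cebp1. These genes were picked with the mutant to WT difference of the same libraries already known, so that difference is given for them as a description, with no p-value. All 8 passed the filter on low counts.

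The study compared fish homozygous for a clcn7 mutation (clcn7-/-) with their WT siblings at 10 weeks post fertilization, with 3 libraries per genotype and 6 in all. Fish of both genotypes carried ctsk:dsRed, a reporter in which the promoter of the osteoclast protease gene ctsk drives a red fluorescent protein. Each library combined the sorted cells of 2 fish, 5000 from each, and was prepared with an ultra-low input method. By its title the series screened for osteogenic products of osteoclasts in which resorption fails. The clcn7 protein exchanges chloride for protons in lysosomes and in the acid zone that osteoclasts form on bone. The labels do not describe the allele and do not limit the mutation to a cell type.

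G-CSF is a secreted cytokine that drives the production, release and activation of neutrophils. It binds a receptor that has no enzyme activity of its own, signals through JAK kinases and STAT factors, and is held back by SOCS proteins. C/EBP proteins are leucine-zipper transcription factors that bind DNA as pairs. C/EBP-alpha is required for steady granulocyte production, and in mice C/EBP-beta supports the emergency production of granulocytes during infection. Zebrafish carry a pair of G-CSF genes whose products act through the csf3r receptor.

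The mutant libraries held 22739782 to 26856895 read counts over genes, and the WT libraries 24518036 to 26951306. clcn7 itself measured 39.8, 29.8 and 40.9 CPM, a gene's counts scaled to a common library total, in mutant replicates 1, 2 and 3, against 32.8, 28.7 and 24.5 CPM in WT replicates 1, 2 and 3. It did not pass the test between genotypes (log2 fold change 0.21 ± 0.18 SE, edgeR adjusted p = 0.482), and with the allele undescribed this level does not check the labels. The osteoclast marker ctsk was abundant, at 1286, 1119.9 and 1367 CPM in the mutant libraries and 985, 436 and 480.5 CPM in the WT libraries. WT replicate 1 had the highest WT level of ctsk, which did not pass the test between genotypes (0.84 ± 0.30, edgeR adjusted p = 0.102). Every mutant library nonetheless stood above every WT library in ctsk, as in 25.9% of all tested genes. Genes of other cells were present too: the summed keratinocyte markers lay between 19976 and 31107 CPM in mutants and between 45074 and 52315 CPM in WT, and the summed osteoblast markers between 15793 and 21214 CPM in mutants and between 21317 and 31425 CPM in WT. In bulk samples such as these, fewer cells of a type and less RNA per cell cannot be told apart.

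Both G-CSF ligand genes were low in WT and much higher in mutants. csf3a measured 30.4, 31.7 and 33.0 CPM in mutant replicates 1, 2 and 3, against 1.63, 1.34 and 1.22 CPM in WT replicates 1, 2 and 3. The 3 mutant values lay within 1.08-fold of each other, and the lowest of them was 18.7 times the highest WT value. The WT values rest on 43, 36 and 30 reads, so the exact 95% Poisson interval of the WT replicate 3 value runs from 0.826 to 1.75 CPM. Such intervals cover counting error only. The fitted log2 fold change of csf3a was 4.35 ± 0.19 (SE), the 53rd highest of the 20438 genes tested.

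csf3b, the second ligand gene, measured 32.7, 18.4 and 18.5 CPM in the mutant libraries, against 1.55, 1.89 and 1.47 CPM in the WT libraries. Mutant replicate 1 stood above the other mutant libraries by up to 1.78-fold, while the genotypes did not overlap. The fitted log2 fold change was 3.68 ± 0.32 (SE), and 3.31 without mutant replicate 1. The balance of the ligand genes varied within each genotype. There were 0.93, 1.72 and 1.79 csf3a reads per csf3b read in mutants and 1.05, 0.706 and 0.833 in WT, and the genotypes overlapped in this ratio. The ligand genes are paralogs, and how the counting treated reads that could come from either of them is not given in the sources used here.

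**Figure D1:**
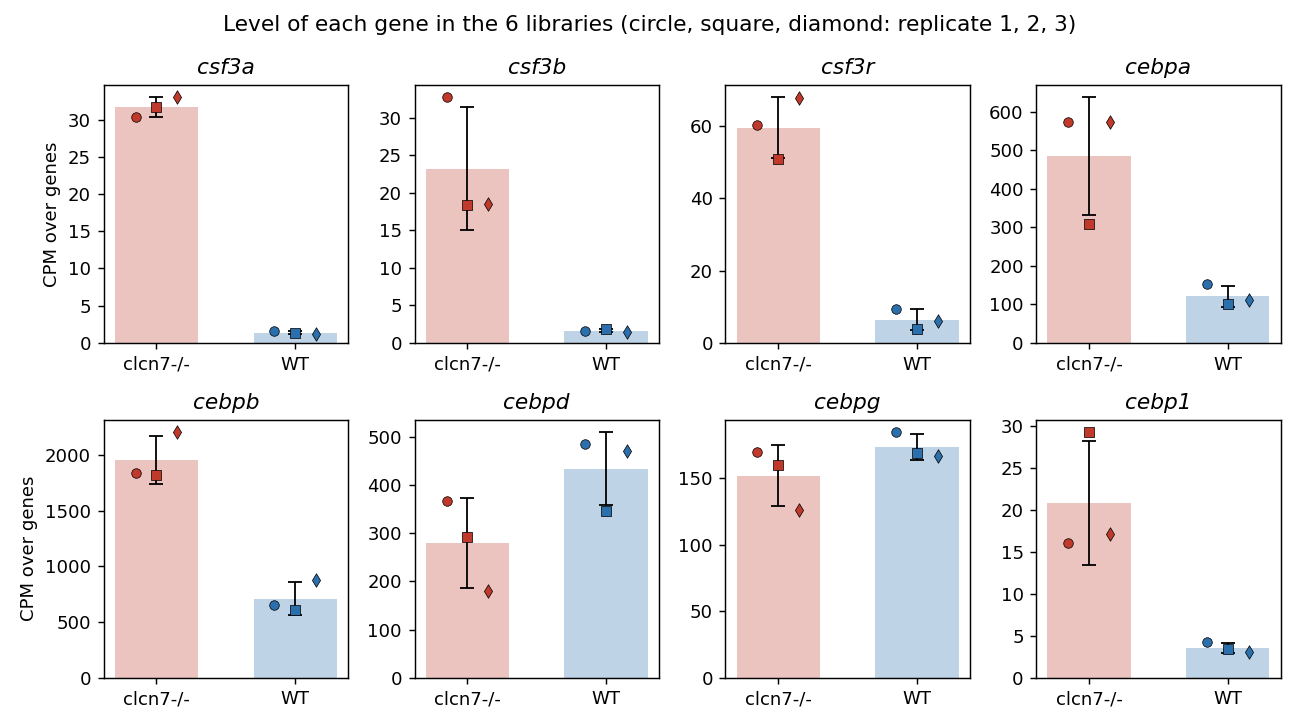
Level of the 8 genes in CPM over genes (vertical axes, each from 0) in clcn7-/- and WT libraries; bars are means, whiskers SD over 3 libraries, and each symbol is a library. In 6 panels all mutant libraries stand above all WT libraries, as in 25.9% of all tested genes. In the cebpd and cebpg panels the genotypes overlap, with mutant means of 279.7 and 152 CPM and WT means of 435 and 174 CPM.

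The receptor gene csf3r was higher in mutants as well. It measured 60.2, 50.8 and 67.6 CPM in mutants, against 9.51, 3.82 and 6.04 CPM in WT. The WT libraries spread more widely than the mutant ones, by 2.49-fold from lowest to highest against 1.33-fold within the mutants, with WT replicate 1 the highest. The lowest mutant value was still 5.34 times the highest WT value. The fitted log2 fold change was 3.06 ± 0.32 (SE), and 3.47 without WT replicate 1.

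Of the 5 C/EBP genes, 3 were higher in mutants and did not overlap with WT, as did 25.9% of all tested genes. The others had lower means in mutants, with overlap. cebpa, the factor of steady granulocyte production, measured 573, 309.6 and 574 CPM in mutants and 152, 100.2 and 112 CPM in WT. Mutant replicate 2 was the lowest mutant library but still 2.04 times the highest WT library. The fitted log2 fold change of cebpa was 1.85 ± 0.28 (SE).

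cebpb, the factor of emergency granulocyte production and of macrophage activation, had the highest read counts of the set. It measured 1839, 1823 and 2209 CPM in mutants and 651, 606 and 877 CPM in WT. Its mutant libraries lay within 1.21-fold of each other and its WT libraries within 1.45-fold. The fitted log2 fold change was 1.30 ± 0.18 (SE), and 1.53 without WT replicate 3, its highest WT library.

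cebp1, described in zebrafish as a C/EBP factor of myeloid cells, measured 16.0, 29.3 and 17.1 CPM in mutants and 4.24, 3.41 and 3.02 CPM in WT. Mutant replicate 2 was here the highest mutant library, in contrast to cebpa and csf3r, for which it was the lowest. The fitted log2 fold change was 2.39 ± 0.29 (SE), and 2.07 without mutant replicate 2.

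cebpd, an inducible C/EBP gene of the acute-phase and inflammatory response in mammals, stood the other way. It measured 367, 292 and 180.5 CPM in mutants and 485, 347 and 471 CPM in WT, and mutant replicate 1 lay above WT replicate 2. Its fitted log2 fold change was -0.78 ± 0.28 (SE), between -1.05 without mutant replicate 1 and -0.52 without mutant replicate 3. cebpg, whose product lacks an activation domain and acts as a pairing partner, measured 170.2, 160.1 and 126 CPM in mutants and 185, 169 and 167 CPM in WT. Mutant replicate 1 lay above WT replicates 2 and 3, and the log2 fold change was -0.34 ± 0.16 (SE).

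Taking the threshold used for all genes (a Benjamini-Hochberg adjusted p under 0.05 in edgeR), 6 of the 8 genes lay past it on the higher side and 0 on the lower side. Across the transcriptome 14.7% of tested genes passed it, 9.91% higher and 4.83% lower in mutants. Because the genes were picked from this same contrast, nothing is read from that count. At an unadjusted p under 0.05, 1 gene of the set stood lower in edgeR. The share of all genes at that threshold is not given here. DESeq2 placed 1, cebpd, past its own adjusted threshold, beside 1848 genes called lower of 30097 fitted. limma-voom placed 0 lower, beside 1323 of 20438. Nothing is read from these counts either. The same 6 genes did not overlap between genotypes in CPM, with mutants above, as did 25.9% of all tested genes. In the authors' deposited table, the log2 fold changes of mutants over WT were 4.36 for csf3a, 3.69 for csf3b, 3.06 for csf3r, 1.86 for cebpa, 1.31 for cebpb, 2.40 for cebp1, -0.773 for cebpd and -0.331 for cebpg. They differed from the fitted values above by less than the SE of each.

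**Figure D2:**
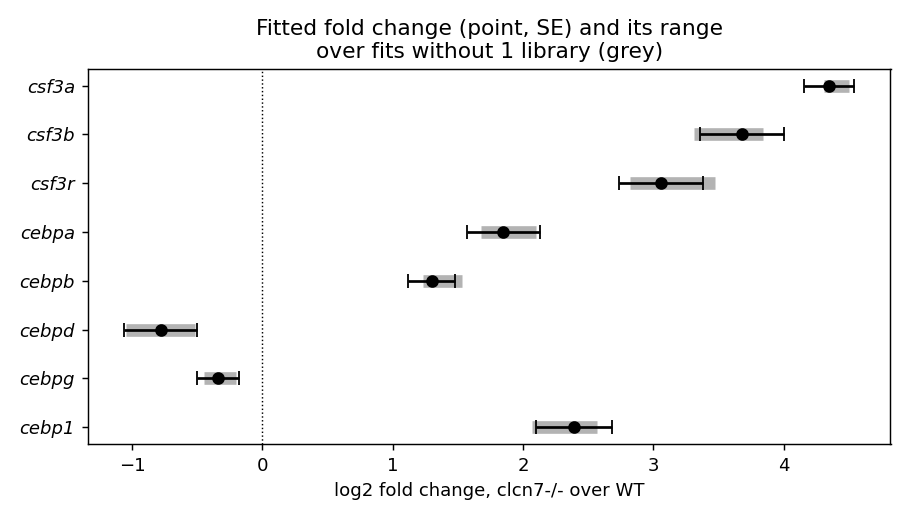
Fitted log2 fold change of clcn7-/- over WT for each of the 8 genes (points, whiskers SE), with the range over the 6 fits that each leave out 1 library in grey. The grey ranges of csf3a (4.31 to 4.50) and cebpg (-0.45 to -0.20) are short, and none of the 8 ranges reaches 0.

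Within the C/EBP family the balance of reads differed between genotypes for some pairs of genes. Ratios of counts between a pair of genes inside a library do not depend on library scaling; the pairs were chosen after the values were seen and are descriptions. There were 5.02, 6.24 and 12.2 cebpb reads per cebpd read in mutants, against 1.34, 1.74 and 1.86 in WT. The lowest mutant ratio was above the highest WT ratio. For cebpa over cebpg, genes that lie next to each other in the GRCz12tu assembly, the ratios were 3.37, 1.93 and 4.55 in mutants and 0.823, 0.593 and 0.667 in WT, again without overlap. Each of these pairs sets a gene higher in mutants over a gene with a lower mutant mean. Their ratios follow from those changes and are no separate result. In contrast cebpa and cebpb kept overlapping ratios, at 0.312, 0.170 and 0.260 cebpa reads per cebpb read in mutants and 0.234, 0.165 and 0.127 in WT.

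Most neutrophil and macrophage markers were also higher in mutants. Of 19 tested granule and neutrophil effector genes, 15 rose in mutants and 0 fell. Their log2 fold changes had a median of 2.73, against -0.05 for all tested genes. Beside that 0, edgeR placed 1 gene lower at an unadjusted p under 0.05, DESeq2 called 0 lower and limma-voom 1, and edgeR called 1 lower without mutant replicate 2. The summed level of this list lay between 6271 and 7476 CPM in mutants and between 4274 and 5046 CPM in WT, and none of its genes in the files was at 0 in all libraries. A large part of this sum was s100a10b, which did not pass the test (-0.42 ± 0.17, edgeR adjusted p = 0.142). It measured 2297, 2292 and 2785 CPM in mutants and 2457, 3266 and 3139.7 CPM in WT. mmp9 stands in this list and in the osteoclast list. The calls with the smallest p here were lect2l, a leukocyte chemotaxin gene (3.03 ± 0.16, edgeR adjusted p = 0.000199), and adam8a, a membrane protease gene (2.40 ± 0.13, edgeR adjusted p = 0.00028). Among macrophage markers 13 of 15 rose, with a median of 2.88, and their sum lay between 3816 and 9739 CPM in mutants and between 1192 and 2079 CPM in WT. The part of these cells in the values of the 8 genes was not tested.

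Reads of each gene were also set against mpx, the myeloperoxidase gene that heads the neutrophil list, which measured 344, 506 and 366 CPM in mutants and 37.4, 23.3 and 46 CPM in WT. This comparison was chosen after the values were seen. csf3r had 0.175, 0.100 and 0.185 reads per mpx read in mutants and 0.254, 0.164 and 0.131 in WT, so the genotypes overlapped. csf3a had 0.0884, 0.0626 and 0.0902 reads per mpx read in mutants and 0.0436, 0.0572 and 0.0266 in WT, without overlap, with mutants above. csf3b overlapped. For cebpa, cebpb and cebp1, which were higher in mutants in CPM, the ratio to mpx was lower in every mutant library than in any WT library. So were the ratios of cebpd and cebpg. Mean CPM of mpx in mutants was 11.4 times that in WT, against 4.0, 2.75 and 5.84 times for cebpa, cebpb and cebp1. The lower ratios follow from that larger rise of mpx and are no separate result about these factors. cebpb, for example, had 5.34, 3.60 and 6.04 reads per mpx read in mutants against 17.4, 26.0 and 19.1 in WT.

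Set against mpeg1.1, the perforin gene that heads the macrophage list, csf3a again stood above WT in every mutant library, at 0.152, 0.342 and 0.125 reads per mpeg1.1 read in mutants against 0.0463, 0.0672 and 0.0946 in WT. csf3b, csf3r, cebpb and cebp1 overlapped between genotypes in this ratio, and cebpa was lower in every mutant library. Such ratios depend on the marker chosen. Mean CPM in mutants was 22.7 times that in WT for csf3a and 8.18 times for mpeg1.1. It was 28.5 times for mfap4, 22.9 times for grn2 and 36.9 times for grn1 of the same list. Every other tested marker of that list rose by less than csf3a or did not rise.

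**Figure D3:**
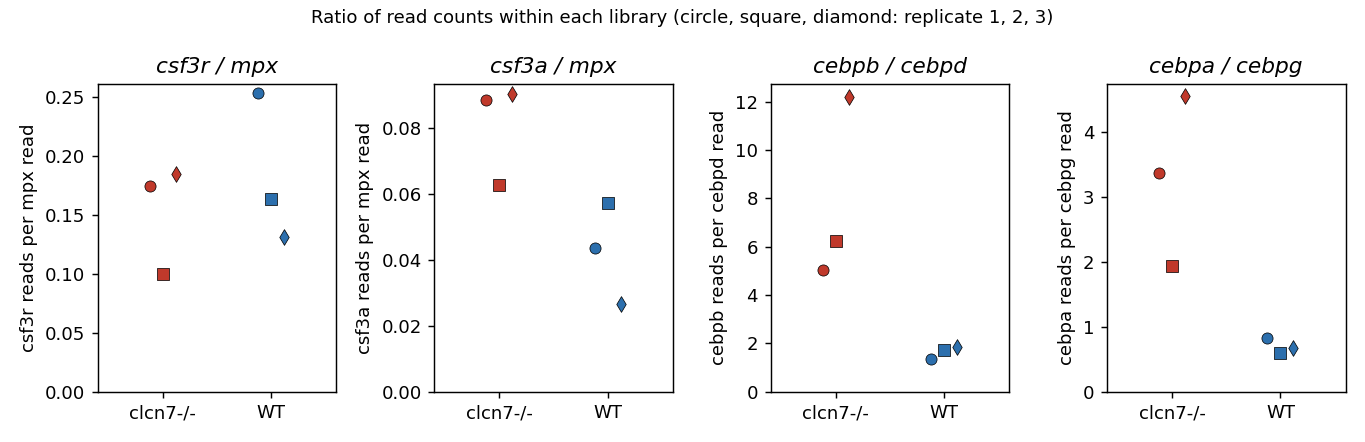
Ratios of read counts within each library for csf3r over mpx, csf3a over mpx, cebpb over cebpd and cebpa over cebpg (vertical axes, reads per read, from 0) in clcn7-/- and WT libraries, with a symbol per library. The csf3r to mpx ratios overlap, and in the other panels every mutant library stands above every WT library.

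Genes that act below the receptor were followed through lists of the pathway. Of 23 tested signal transducers 9 rose and 0 fell, and the median log2 fold change was 0.34. No transducer was lower at an unadjusted p under 0.05 in edgeR, and DESeq2 and limma-voom also called 0 lower. The calls with the smallest p were cbl, which encodes a ubiquitin ligase that turns over activated receptors and kinases (1.59 ± 0.17, edgeR adjusted p = 0.00175), and hck, a Src-family kinase gene of myeloid cells (2.93 ± 0.32, edgeR adjusted p = 0.00189). cbl averaged 92.3 ± 15.8 CPM in mutants and 27.6 ± 1.82 CPM in WT, and hck 129 ± 25.6 CPM in mutants and 15.2 ± 6.38 CPM in WT (SD, n = 3 each). Among the kinase and STAT genes that couple to the receptor, named after their values were seen, jak2a rose (1.04 ± 0.14, edgeR adjusted p = 0.00394). tyk2 rose too (1.0 ± 0.16, edgeR adjusted p = 0.00647). jak2b (0.28 ± 0.14, edgeR adjusted p = 0.237) and jak1 (0.43 ± 0.16, edgeR adjusted p = 0.11) did not pass. Nor did stat5a (0.17 ± 0.17, edgeR adjusted p = 0.558) and stat5b (0.18 ± 0.16, edgeR adjusted p = 0.51). stat3 measured 194, 188 and 224 CPM in mutants and 135, 155 and 161 CPM in WT and did not pass the test (0.27 ± 0.14, edgeR adjusted p = 0.234).

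The feedback inhibitors went different ways. Of 7 tested, 2 rose and 1 fell (median of the log2 fold changes 0.19). ptpn6, the gene of a phosphatase of blood cells that also stands among the transducers, rose (2.52 ± 0.30, edgeR adjusted p = 0.0023), as did socs1a (1.55 ± 0.23, edgeR adjusted p = 0.00517). socs3a encodes a form of SOCS3, the protein known to bind and dampen the G-CSF receptor. It measured 1044, 1088 and 998 CPM in mutants and 1347, 1214 and 1651 CPM in WT, without overlap, as in 11.6% of all tested genes with mutants below. socs3a passed the threshold narrowly (log2 fold change -0.58 ± 0.16, edgeR adjusted p = 0.0495). Its call was kept in 0 of the 6 fits that leave out 1 library and was also lost with library size alone, without the low-count filter and with the replicate block, with adjusted p between 0.00813 and 0.208 over all alternatives. socs3b of the same list overlapped between genotypes and did not pass (-0.58 ± 0.22, edgeR adjusted p = 0.117).

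Known inducers of G-CSF transcription were measured in the same libraries. Of 14 tested, 5 rose and 1 fell (median of the log2 fold changes 0.36). il1b, the interleukin-1 beta gene, measured 259, 379 and 234 CPM in mutants and 20.6, 6.12 and 21.7 CPM in WT (4.02 ± 0.48, edgeR adjusted p = 0.00244). tnfb, a tumour necrosis factor gene, measured 207, 197 and 225 CPM in mutants and 30.5, 14.1 and 28.9 CPM in WT (2.95 ± 0.29, edgeR adjusted p = 0.00141). Neither il1b nor tnfb overlapped between genotypes, as in 25.9% of all tested genes with mutants above. il17rc, a receptor chain gene for interleukin-17, fell (-1.41 ± 0.35, edgeR adjusted p = 0.0362), with the call kept in 0 of the 6 fits without 1 library. The il17rc call was also lost with library size alone and with the replicate block, with adjusted p between 0.00376 and 0.119 over all alternatives. The interleukin-17 ligand genes il17a/f1, il17a/f2, il17a/f3 and il17c did not pass the low-count filter, and il17a/f1 had no read in any library. The 5 risers became 3 without WT replicate 2 or any of mutant replicates 1, 2 and 3.

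Other growth factor systems of myeloid cells contributed 5 risers and 1 faller of 18 tested genes (median of the log2 fold changes -0.12). The interleukin-6 receptor gene il6r rose to 89.7 ± 5.20 CPM in mutants, against 16.8 ± 3.88 CPM in WT (SD, n = 3 each; 2.27 ± 0.20, edgeR adjusted p = 0.000856). csf2rb, which encodes a shared beta chain of cytokine receptors, rose too (2.54 ± 0.41, edgeR adjusted p = 0.00752), and csf1a, a ligand gene of the macrophage growth factor receptor, fell (-0.94 ± 0.25, edgeR adjusted p = 0.0422). csf1b of the same list overlapped between genotypes and did not pass (-0.26 ± 0.28, edgeR adjusted p = 0.579). The csf1a call was kept in 0 of the 6 fits without 1 library and lost with library size alone, with adjusted p between 0.00513 and 0.149. The 5 risers became 2 without WT replicate 2 or mutant replicate 1, and 3 without WT replicate 3 or mutant replicates 2 or 3.

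Leucine-zipper factors that can pair with C/EBP proteins mostly did not pass. Of 17 tested, 2 rose and 2 fell, and the median log2 fold change was -0.24. batf3, a gene read at a low level, rose to 3.44 ± 0.803 CPM in mutants, against 0.393 ± 0.260 CPM in WT (SD, n = 3 each; 2.97 ± 0.57, edgeR adjusted p = 0.0138), and the stress-response gene atf4a rose by less (0.63 ± 0.13, edgeR adjusted p = 0.0189). atf4b, read at a higher level than atf4a, overlapped between genotypes and did not pass (-0.24 ± 0.15, edgeR adjusted p = 0.345). The AP-1 genes fosab (-0.78 ± 0.18, edgeR adjusted p = 0.0281) and junbb (-0.72 ± 0.20, edgeR adjusted p = 0.0473) fell. None of these 4 calls held in all fits without 1 library: the call was kept in 5 of 6 fits for batf3, 3 for atf4a, and 2 each for fosab and junbb. Those of fosab and junbb were also lost with library size alone, and that of junbb without the low-count filter. Without WT replicate 2, 0 genes of the list rose and 0 fell. The risers became 1 without WT replicate 3 or mutant replicate 1, and the fallers 0 without WT replicate 3 or mutant replicates 1 or 3.

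Among transcription factors of granulocyte and blood lineages, 7 of 19 tested rose and 2 fell (median of the log2 fold changes 0.95). spi1a, a PU.1 gene that works with C/EBP-alpha in myeloid commitment, rose to 194 ± 64.6 CPM in mutants, against 25.8 ± 6.92 CPM in WT (SD, n = 3 each; 2.76 ± 0.29, edgeR adjusted p = 0.00171). The lymphoid and myeloid factor gene ikzf1 rose as well (2.39 ± 0.32, edgeR adjusted p = 0.00348). klf4 fell (-1.31 ± 0.21, edgeR adjusted p = 0.00754), and so did gata2b, a gene of blood stem cells, to 0.455 ± 0.0781 CPM in mutants, against 2.60 ± 0.641 CPM in WT (SD, n = 3 each; -2.65 ± 0.46, edgeR adjusted p = 0.00936). The gata2b call was lost without WT replicate 3, with an adjusted p of 0.0511, the highest over its alternatives, which left 1 called faller in the list.

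Among chemokine and other attractant receptors that guide neutrophils, 4 of 5 tested genes rose and 0 fell (median of the log2 fold changes 2.82). At an unadjusted p under 0.05 edgeR also placed 0 of them lower, as did DESeq2 and limma-voom at their adjusted thresholds. cxcr4b, a gene whose product holds neutrophils in the marrow of mammals and whose signal G-CSF counters there, measured 628, 442 and 804 CPM in mutants and 97.8, 49.2 and 91.3 CPM in WT (2.82 ± 0.32, edgeR adjusted p = 0.00207). ltb4r, a leukotriene B4 receptor gene, averaged 54.6 ± 5.38 CPM in mutants and 6.23 ± 2.22 CPM in WT (SD, n = 3 each; 2.98 ± 0.28, edgeR adjusted p = 0.00126).

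**Figure D4:**
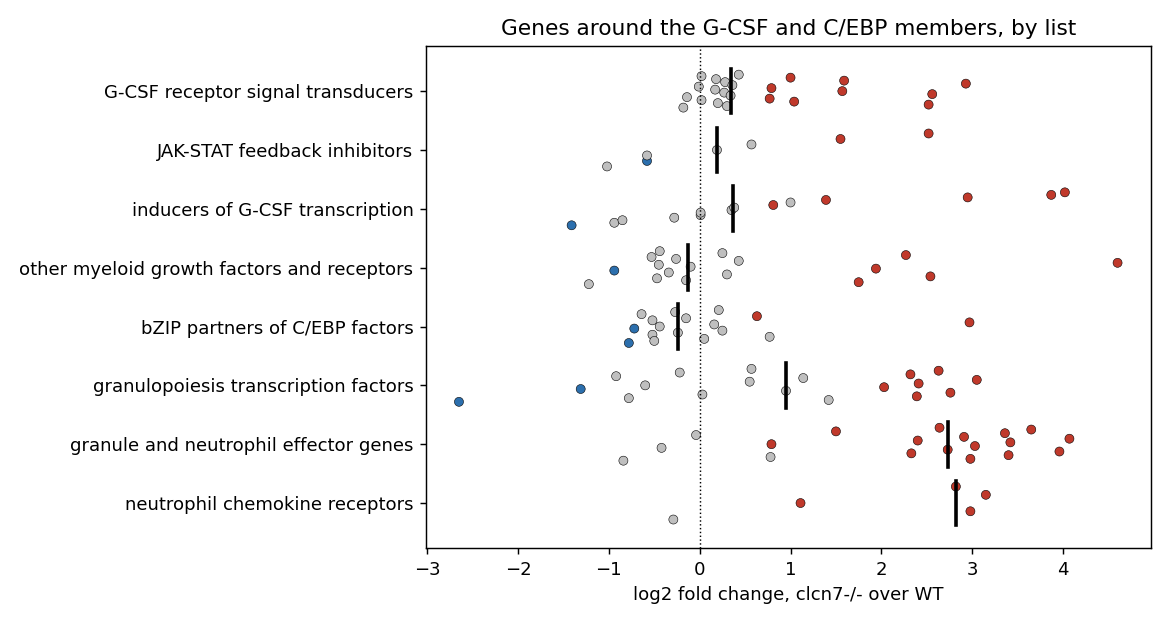
Log2 fold change of clcn7-/- over WT (horizontal axis) for each tested gene of the 8 pathway lists, with red for genes called higher, blue for genes called lower, grey for genes not called (edgeR adjusted p under 0.05) and a bar at each list's median. The neutrophil effector genes and the list labelled neutrophil chemokine receptors have medians of 2.73 and 2.82. That receptor list also holds ltb4r and fpr1, which are not chemokine receptor genes. The lists of transducers, feedback inhibitors and inducers have medians between 0.19 and 0.36.

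Taken over the 8 pathway lists, with a gene counted once, 48 of 121 tested genes rose and 7 fell, beside 9.91% and 4.83% of all tested genes. The granule and neutrophil effector list holds 15 of these risers. The lists were chosen with earlier results of these data known, so nothing is read from these counts. Leaving out WT replicate 1 left 4 fallers, leaving out WT replicate 2 left 3, and leaving out WT replicate 3 left 1. Leaving out mutant replicate 1 or mutant replicate 3 left 2. DESeq2 and limma-voom called 10 fallers each. Markers of other cells moved as well. Of 9 erythroid markers 7 rose, their sum lying between 1057 and 2751 CPM in mutants and between 299 and 555 CPM in WT, led by slc4a1a (2.78 ± 0.37, edgeR adjusted p = 0.00367) and alas2 (2.24 ± 0.31, edgeR adjusted p = 0.00422). Of 10 thrombocyte and lymphocyte markers lck (1.47 ± 0.34, edgeR adjusted p = 0.0288) and cd79b (2.39 ± 0.65, edgeR adjusted p = 0.0468) rose. The lck call was kept in 2 of the 6 fits without 1 library. The cd79b call was kept in 0 of them and was also lost with upper-quartile factors, without the low-count filter, with limma-voom and with the replicate block, with adjusted p between 0.0272 and 0.166. The list had 6 risers with DESeq2 and 6 at an unadjusted p under 0.05 in edgeR, and 1 with upper-quartile factors. It had 1 riser without WT replicate 1 or 2 and 0 without WT replicate 3 or mutant replicates 1 or 3. Of 12 osteoblast markers 4 fell, including alpl (-0.96 ± 0.14, edgeR adjusted p = 0.00509) and col10a1a (-1.81 ± 0.30, edgeR adjusted p = 0.00754). The fallers numbered 7 with DESeq2, 7 with the replicate block and 8 at an unadjusted p under 0.05 in edgeR, but 2 without WT replicate 2 or mutant replicates 2 or 3. Of 10 keratinocyte markers 8 fell, including tp63 (-1.52 ± 0.28, edgeR adjusted p = 0.0115) and epcam (-1.23 ± 0.25, edgeR adjusted p = 0.016). That count was 4 without WT replicate 1, 3 without mutant replicates 1 or 3 and 0 without WT replicate 3. The tp63 call was lost without WT replicate 3, and that of epcam without WT replicate 3 or mutant replicate 1. Of 11 endothelial and fibroblast markers tie1 rose (0.99 ± 0.27, edgeR adjusted p = 0.0485) and pdgfrb fell (-0.69 ± 0.19, edgeR adjusted p = 0.0461), the tie1 call kept in 1 and the pdgfrb call in 0 of the 6 fits without 1 library. The tie1 call was also lost with upper-quartile factors and with the replicate block, and the pdgfrb call with library size alone and without the low-count filter. This list had 2 fallers with upper-quartile factors, DESeq2 or limma-voom. Among 11 osteoclast markers nfatc1, the master factor of osteoclast formation, fell (-0.65 ± 0.17, edgeR adjusted p = 0.0415, call kept in 2 of 6 fits and lost with library size alone) and 0 rose. At an unadjusted p under 0.05, 2 osteoclast markers stood higher, DESeq2, limma-voom and the replicate block called 2 higher each, and edgeR called 3 without WT replicate 1. The macrophage markers with the smallest p were mfap4 (4.69 ± 0.44, edgeR adjusted p = 0.00123) and grn2 (4.36 ± 0.45, edgeR adjusted p = 0.00171).

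The genes whose pattern over the 6 libraries was nearest to each member were found among 11239 named genes with a mean of at least 5 CPM. The measure was the root mean square distance between log2 CPM profiles, TMM-scaled and each centred on its own mean. For csf3a the nearest were mxf (distance 0.27) and tfec (0.32), an MiT-family transcription factor gene, and for csf3b the cystine transporter gene slc7a11 and susd1 (0.32 each). csf3r lay nearest to nrros (0.16), a gene of myeloid cells whose product anchors latent TGF-beta, and to plek (0.19), a pleckstrin gene of blood cells. tfec measured 52.8, 41.1 and 67.2 CPM in mutants and 3.79, 3.49 and 2.86 CPM in WT, and nrros 168, 142 and 189 CPM in mutants and 25.2, 14.2 and 16.3 CPM in WT.

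For cebpa the nearest genes were hsd17b14 (0.11) and the lysosomal peptide transporter gene slc15a4 (0.12), and all of them were lowest among mutants in replicate 2. The search picks genes by this same pattern, so what they share with cebpa is no separate result. cebpb lay nearest to nfkbiaa (0.067), the gene of an NF-kB inhibitor, and plekhf1 (0.083). nfkbiaa measured 187, 207 and 236 CPM in mutants and 76.6, 66.5 and 95.5 CPM in WT. cebp1 lay nearest to DIPK2B (0.15) and to hemgn (0.18), a hemogen gene of blood progenitors. cebpd was nearest to lpcat4 (0.069) and slc7a2 (0.074), and cebpg to dip2ca (0.026) and srfa (0.028). Within the set itself, the profiles of csf3a and csf3b lay 0.50 apart, those of cebpa and cebpb 0.44, and those of cebpd and cebpg 0.33. Distances are not compared between members.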

How the data were processed

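Whole read counts per gene were deposited by the authors, 1 file per library, over 36351 gene rows. The tools listed in the submitters' processing notes are HTSeq 0.9.1, STAR 2.7.0a, DESeq2 and Trim Galore, with GRCz11 as genome build; annotation and strand setting are not given in these sources. Without strand, reads of overlapping genes cannot be told apart, and in the GRCz12tu table csf3r, cebpa, cebpb and cebpg overlap uncharacterised loci. The 5 rows that name no gene held 20.1% to 23.0% of counts and were left out. Per the file headers, a further table of the authors holds log2 values of each library beside log2 fold changes and p-values; only its fold changes of the 8 genes are printed.

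CPM values use plain library totals over genes. The log2 CPM profiles of the search for nearest genes use TMM scaling and a prior count of 2 instead. Counts were tested with edgeR 4.0.16 in R 4.3.3: filterByExpr (minimum count 10, minimum total 15), TMM scaling (factors 1.02 to 1.08 in mutants and 0.940 to 0.964 in WT), and quasi-likelihood F-tests between genotypes, with no other covariate. p-values were adjusted by Benjamini-Hochberg over 20438 genes, with calls at 0.05. The common biological coefficient of variation was 35.3%. Log2 fold changes are given ± SE and CPM means ± SD. This SE is the absolute log2 fold change divided by the square root of its F statistic. The steps were tested on simulated data. Replicates are called biological in the labels, each of 2 pooled fish.

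The members, the 15 gene lists and the naming rule were chosen with earlier results of these data known. The rule names, per list, up to 2 called genes per direction with the smallest p, and the 2 nearest genes per member. Of 210 listed symbols, 9 were not matched. Alternatives were RLE and upper-quartile factors, library size alone, no filter, at least 1 CPM in 3 libraries, DESeq2 1.42.0, limma-voom (limma 3.58.1), the replicate number as a block, and leaving out each library.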

Additional observations from a re-analysis of the deposited data

How the results depend on the processing

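The 6 members higher in mutants passed the threshold in each of the 14 alternatives, and each of the 8 kept its direction. As the members were picked with this same contrast known, that describes the settings and is no test of the members. Fold changes that moved by more than the spread between replicates were those of csf3a with library size alone (log2 fold change 4.50) and, over the fits without 1 library, csf3a (4.31 to 4.50) and cebpb (1.23 to 1.53). The only member count that moved was that of members lower in mutants, 1 (cebpd) with DESeq2. Counts over all genes were less steady. Genes called lower, 987, numbered 1675 with upper-quartile factors, 564 with library size alone and 1848 with DESeq2, and 199 to 737 over the fits without 1 library. Genes called higher, 2025, numbered 1157 to 1828 in those fits, 2626 with library size alone, 2715 with DESeq2 and 1787 with upper-quartile factors. In the pathway lists together the fallers, 7, numbered 2 with library size alone and 1 to 7 without 1 library. They numbered 10 each with DESeq2 and limma-voom. The risers, 48, numbered 38 to 54 over all alternatives. The cause of these shifts was not tested. The median log2 fold change of all genes was -0.05, 0.10 with library size alone and -0.16 with upper-quartile factors, so small changes such as that of cebpg depend on scaling in size (-0.45 to -0.19 outside the fits without 1 library). Deviations of same-numbered libraries from their group means correlated at 0.236, 0.0332 and 0.162, so the numbers were not taken to pair the samples; with the replicate block 1940 genes were called higher and 1067 lower. Depth limits csf3a and csf3b in WT, at 30 to 51 reads per library.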
